A study of Homo sapiens with 44 samples.

Results

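The cytoplasmic ribosomal protein genes were followed while H1, an established line of human embryonic stem cells, was turned into heart muscle. The members were the protein-coding genes of GENCODE release 29 whose symbol is RPL or RPS with a number and an optional A, X or L, together with RPLP0, RPLP1, RPLP2 and RPSA. Kinase genes of the RPS6K family and Y-linked copies were left out. This gave 81 genes of the 60499 gene identifiers in the deposited tables, with 49 in the large (60S) and 32 in the small (40S) ribosomal subunit. Total RNA of 44 culture wells had been sequenced in 12 groups. The pluripotent group grew on LN-521, and every other group on LN-521 with LN-221, both recombinant laminins. The labels name no transgene or deletion in any group. Day 0 is the culture in Nutristem medium before CHIR99021. Days 1 and 3 followed CHIR99021, which turns Wnt signalling on by inhibiting GSK3, and day 5 also followed IWP2, which blocks Wnt secretion and was given at day 3. The medium was RPMI 1640, with insulin-free B27 on days 1 to 9 and with CTS B-27 supplement from day 11 to day 90. Days 5, 7, 9 and 11 have 5 wells each and the other groups 3. All wells come from 1 cell line, and the labels call the wells biological replicates without naming separate differentiations, so p-values measure the spread between wells.

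A ribosome translates mRNA into protein, and each of its proteins is normally needed in about the same number of copies. The mRNAs of these proteins are among the most abundant in dividing cells, and most begin with a run of pyrimidines, the terminal oligopyrimidine tract, through which growth signals such as mTOR adjust their translation and stability. A few members have paralogs with tissue-restricted use. RPL3L replaces RPL3 in adult heart and skeletal muscle, RPL39L and RPL10L are known from male germ cells, and RPS27L, a paralog of RPS27, is a p53 target.

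The starts of the transcripts are shown first, because the pyrimidine tract is the feature that the members are known for. Whether the course of a member went with its tract was not tested. The RefSeq promoter table (GRCh38.p14) had an entry for 64 of the 81 members. The tract was read on the transcript's own strand as a C followed by C or T, starting within 10 bases of the annotated start. A tract of at least 5 bases was found for 56 members (87.5%), against 35.3% of the 27305 genes in the table. A tract of at least 8 bases was found for 48 members (75%) and for 9.78% of all genes. Each line below runs from 10 bases before the start to 20 bases from it, with the tract in capitals.
RPLP0: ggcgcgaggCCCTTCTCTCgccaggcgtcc
RPL3: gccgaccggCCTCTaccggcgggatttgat
RPL39: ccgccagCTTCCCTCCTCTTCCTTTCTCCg
RPS27: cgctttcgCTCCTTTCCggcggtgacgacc
RPL22: cgctcaCCTCCCTTTCTaactccgctgccg
RPL22L1: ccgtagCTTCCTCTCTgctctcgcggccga
RPS26: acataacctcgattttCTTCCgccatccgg
RPS27L: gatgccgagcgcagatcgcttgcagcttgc

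RPLP0 lies at chr12:120201092-120201121 on the minus strand, RPL3 at chr22:39319604-39319633 (minus), RPL39 at chrX:119791611-119791640 (minus) and RPS27 at chr1:153990752-153990781 (plus). RPL22 lies at chr1:6199576-6199605 (minus), RPL22L1 at chr3:170870176-170870205 (minus), RPS26 at chr12:56041908-56041937 (plus) and RPS27L at chr15:63157458-63157487 (minus). RPL39 had the longest tract of those shown, at 22 bases. RPS26 had 5 bases, beginning 7 bases into the transcript, and RPS27L had none in this window. RPL22L1, which fell most among the paralogs between pluripotent cells and day 9, had a tract of 10 bases, close to the 11 bases of RPL22. In the 300 bases from 250 before the start to 50 after it, read on both strands, CCGGAAG, the core letters of an ETS factor site, stood in 23 members (35.9%) and in 12.2% of all genes. TATAAA stood in 6 members (9.38%) against 14.0%. CACGTG, the E-box letters that MYC can bind, stood in 4 (6.25%) against 8.77%, and AAGATGGC, letters of a YY1 site, in 6 (9.38%) against 3.52%. A match of letters is a description of the sequence and no evidence of binding.

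Total estimated counts per library ranged from 6937136 to 33498022, and the shallowest 3 libraries (day 14 replicate 2, day 20 replicate 2 and day 30 replicate 10) held at most 11715812. The RNA integrity number (10 is intact) was below 9 in 11 wells, 9 of them from day 11 on, with 8.47 ± 1.22 at day 14 and 10.0 in every well at days 0 and 1 (SD, n = 3 each). The summed level of 6 cardiomyocyte markers (TNNT2, MYH6, MYH7, ACTN2, MYL7, MYL2) went from 30.7 to 72.2 counts scaled per 1e+06 counts of the library (CPM) in pluripotent wells to 6105 to 14250 at day 9 and 15090 to 50740 at day 90. From day 5 to day 20 the cultures also held endoderm or hepatocyte markers. Their 5-gene sum was 225 to 770 CPM at day 5, 258 to 1003 CPM at day 7 and 154 to 8592 CPM at days 9 to 20. In 60 of the 81 members the annotated locus overlaps another listed gene, many of them small nucleolar RNAs in introns, so their counts can hold reads of a neighbour. Named pseudogenes of the members held a median of 0.0688% as many counts as their member, with more than 5% for RPL9 (42.6%), RPL23A (38.4%) and RPS2 (16.5%), so that these 3 values are less certain.

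The members made up a large and moving part of the messenger RNA. Expressed as a share of the length-corrected values (TPM) of all nuclear protein-coding genes, they held 23.8 ± 0.42% in pluripotent wells, 23.3 ± 0.20% at day 0 and 23.4 ± 0.34% at day 1 (SD, n = 3 each). Day 3 had 26.0 ± 0.17% (n = 3), day 5 had 29.1 ± 1.26%, day 7 had 27.6 ± 1.81%, day 9 had 25.6 ± 2.07% and day 11 had 24.6 ± 3.17% (n = 5 each). Day 14 had 18.9 ± 2.06%, day 20 had 18.9 ± 2.90%, day 30 had 18.9 ± 3.41% and day 90 had 21.9 ± 3.85% (n = 3 each). The 5 wells of day 5 (26.9 to 30.2%) were all above the 9 wells of the pluripotent, day 0 and day 1 groups (23.1 to 24.2%). In CPM, taken over the TMM-scaled total of each library, the summed level of the members at day 5 (65440 to 83200) overlapped that of pluripotent wells (72200 to 75670). The 9 wells of days 14 to 30 (16.9 to 22.8%) overlapped the 5 wells of day 9 (22.7 to 27.5%) by 1 well only, the shallow day 30 replicate 10. The 60S members held 60.6 to 64.7% of all member CPM in every library. Their part was 60.6 to 61.0% in pluripotent wells and higher late, at 63.1 to 64.4% at day 30 and 62.6 to 63.3% at day 90. In whole wells, fewer cells with many ribosomes and less ribosomal protein mRNA per cell cannot be told apart.

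**Figure D1:**
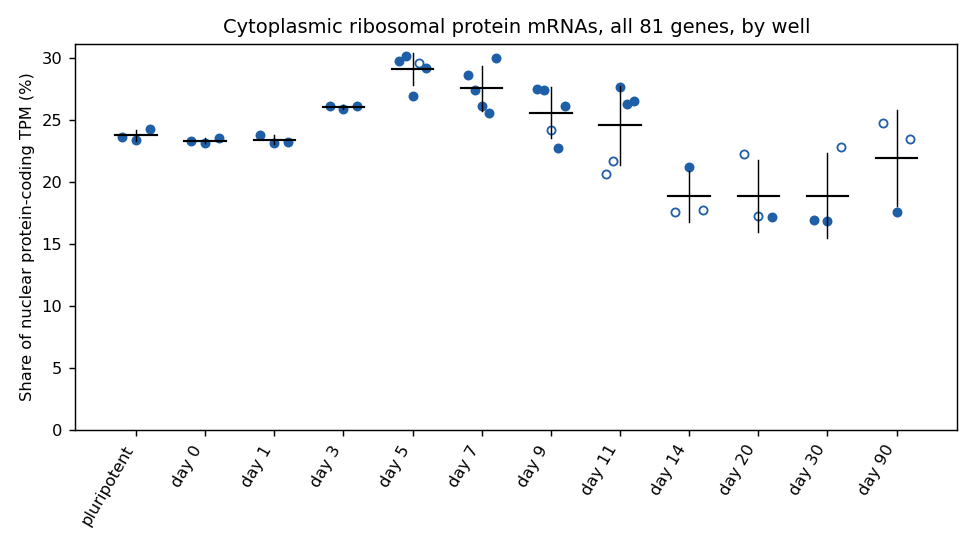
Share of nuclear protein-coding TPM (%, y axis) held by the 81 cytoplasmic ribosomal protein genes in each of 44 wells, by group (x axis); the horizontal line is the group mean, the vertical line 1 SD, and open points are wells with an RNA integrity number below 9. Wells of day 5 sit between 26.9 and 30.2%, and wells of days 14 to 30 between 16.9 and 22.8%.

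Seen gene by gene, most members shared their low point but not their peak. Of the 79 members with a mean of at least 1 CPM, 76 had their lowest group mean at days 14, 20 or 30, and 59 of these at day 14. The exceptions were RPS26 and RPS27L, lowest at day 5, and RPL28, lowest at day 90. Only 33 of the 79 were highest at day 5 or 7, and the others peaked in pluripotent wells, at day 3 or at day 90. The highest group mean was a median of 2.02 times the lowest. Leaving aside RPS26, RPS27L and RPL39L, the remaining 76 ranged from 1.44 times for RPL38 to 3.31 times for RPSA, and their mean levels per length ran from 690 nuclear protein-coding TPM for RPL22 to 7051 for RPS27. RPSA is a small-subunit protein also known as a laminin-binding protein, and its CPM was 2072 ± 91.8 in pluripotent wells and 625.4 ± 70.0 at day 30 (SD, n = 3 each). Across the 44 wells the median correlation of a member's log level with the other members was 0.85 in the middle of the list and 0.58 to 0.91 for these 76. For RPL39L it was 0.57, for RPS26 -0.03 and for RPS27L -0.39. These correlations describe wells that share libraries, groups and scaling, and carry no test.

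**Figure D2:**
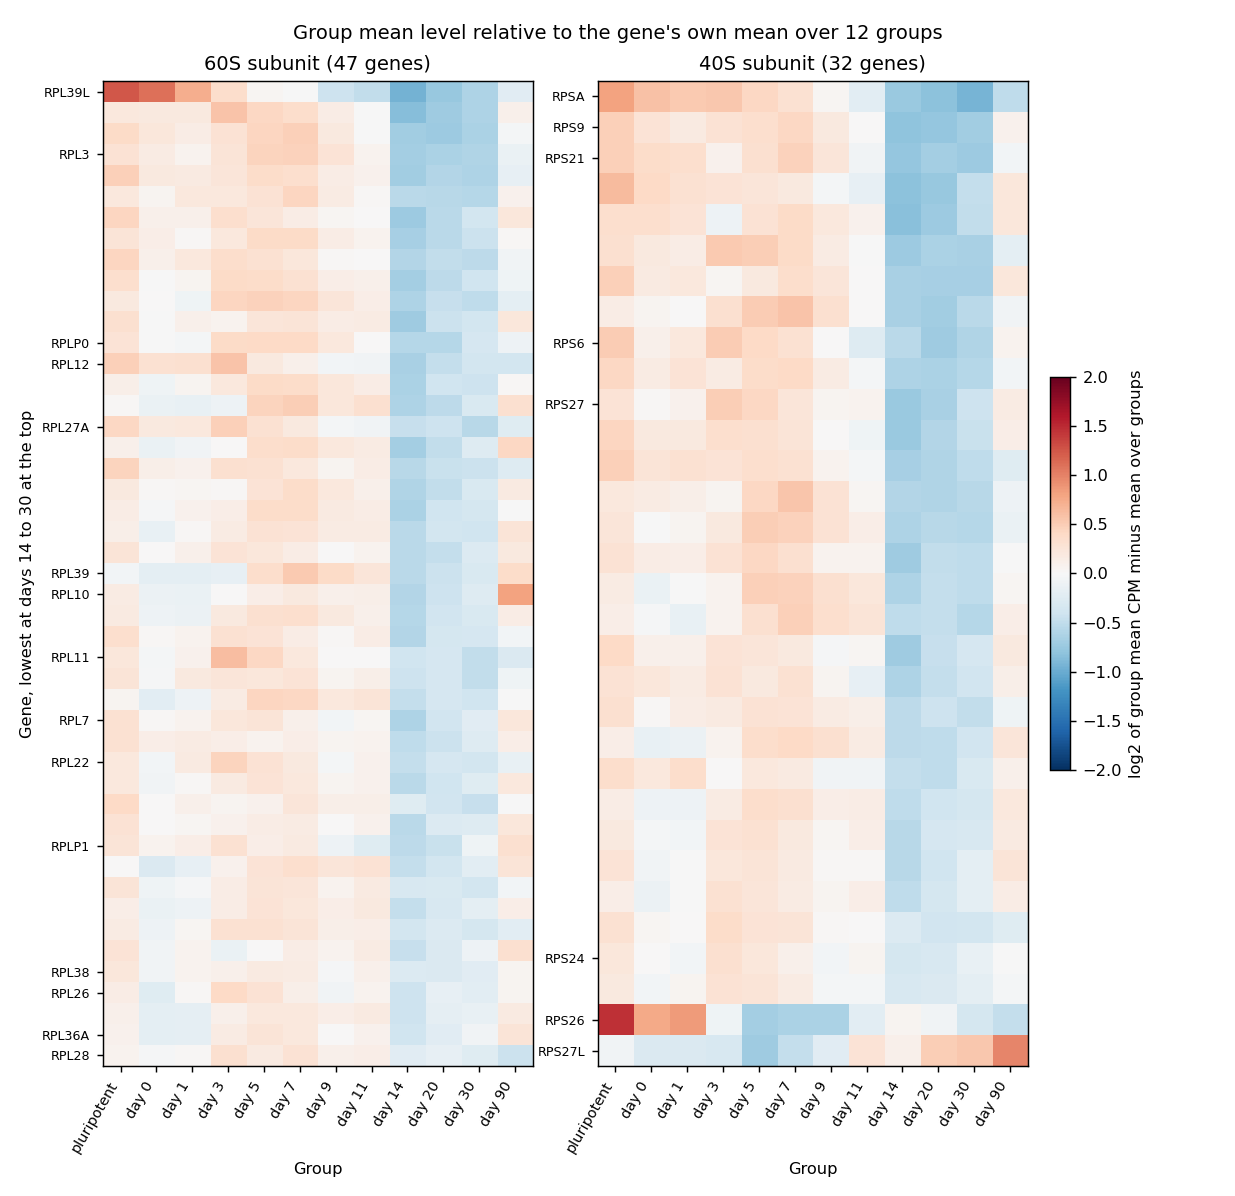
Group mean level of 79 members, as log2 of the group mean CPM minus the gene's own mean over the 12 groups (colour, red higher and blue lower), with one line per gene, the 47 genes of the 60S subunit on the left and the 32 of the 40S subunit on the right, and groups on the x axis; main genes of the text are labelled. Most lines turn blue at days 14 to 30, while RPL39L and RPS26 are red in the early groups and RPS27L is red late.

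The 22955 genes that passed the filter on low counts, 80 of them members, were tested together with the quasi-likelihood test of edgeR. Rose, fell and called are used of a gene only at a p under 0.05 after adjustment by Benjamini and Hochberg, and changes are log2 fold changes with their standard error (SE). The 5 comparisons form a chain from pluripotent cells to day 90, and neighbouring comparisons share wells. Day 9 against pluripotent cells and days 14 to 30 against day 9 were added after the levels had been seen. RPL10L, the 81st member, was not tested, since it was at 0 counts in 39 of 44 wells and at 0.101 CPM or less in the rest.

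Between pluripotent culture and day 0, no member was called in either direction, beside 3.45% of all genes called higher and 2.43% called lower. The members leaned one way all the same, with 78 of 80 below 0 and a median log2 fold change of -0.25, while the median over all genes was 0. By unadjusted p under 0.05, 5 members passed, and 20.5% of all genes did. RPS26, whose protein lies at the mRNA exit of the 40S subunit, had the smallest adjusted p of the members. It stood at 382.5, 353 and 329 CPM in the pluripotent wells and at 219, 208 and 224 CPM at day 0. The groups did not overlap, and the log2 fold change of -0.71 (SE 0.23) had an adjusted p of 0.053. When the spread was estimated from these 6 wells alone, 55 members were called lower and 1 higher, where 24.7% and 24.6% of all genes were called. With limma on protein-coding TPM, a scale on which the median of all genes was 0.16, the members' median was -0.04.

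After addition of the GSK3 inhibitor, read as day 1 against day 0, 1 member fell and none rose. Of 80 members, 0 were called higher and 1 lower (9.78% and 12.3% of all genes), and the median was 0.02. The member called was RPL3L, at 0.537, 0.932 and 1.07 CPM at day 0 (16, 28 and 31 counts) and at 0.168, 0.161 and 0.249 CPM at day 1 (5, 5 and 8 counts). The log2 fold change was -2.10 (SE 0.77, adjusted p = 0.044), from levels near the lowest that these libraries can show, and it no longer passed when any of 5 single wells was left out (day 0 replicates 2 and 3 or day 1 replicates 1, 2 and 3, adjusted p 0.082 to 0.13). All the other 79 members had a log2 fold change within 1 of 0 even at 2 SE. With the spread of these 6 wells alone, 11 members were called higher and 2 lower (29.5% and 29.4% of all genes).

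From day 1 to day 3, RPL11 rose and RPS26 fell, against 15.7% of all genes higher and 12.9% lower. RPL11, which with RPL5 binds the 5S ribosomal RNA and can hold MDM2, went from 858, 840 and 828.6 CPM to 1204, 1141 and 1315 CPM. The groups did not overlap, and the log2 fold change was 0.53 (SE 0.16, adjusted p = 0.012). It lost the call without day 3 replicate 3 (0.48, adjusted p = 0.058). RPS26 went from 244, 232 and 223 CPM to 137.6, 110.7 and 117 CPM, again with no overlap, a fall of 0.94 (SE 0.23, adjusted p = 0.0015). Across the members 63 of 80 were above 0, with a median of 0.16 beside 0.07 over all genes, and RPLP0, the base of the ribosomal stalk, stood at 2205 ± 35.8 CPM before and 2948 ± 109 CPM after (SD, n = 3 each, 0.42, adjusted p = 0.15). With the spread of these 6 wells alone, 40 members were called higher and 5 lower, at 30.2% and 29.9% of all genes.

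Between day 3 and day 9, when cardiomyocyte markers appeared, 8 members fell and 0 rose (18.6% and 17.3% of all genes). The largest 3 falls were those of RPL39L (-0.76, SE 0.22, adjusted p = 0.0067), RPL12 (-0.62, SE 0.17, adjusted p = 0.0042) and RPL11 (-0.61, SE 0.15, adjusted p = 9.64e-04). RPL12, a protein at the foot of the stalk, was at 1279, 1232 and 1358 CPM at day 3 and between 702 and 946 CPM, with a median of 884, in the 5 wells of day 9. RPL11 was between 711 and 857 CPM at day 9. In both genes every day 9 well was below every day 3 well. The others were RPS26, RPL27A, RPS6, RPL22 and RPL26, named because the count is small, with log2 fold changes from -0.55 to -0.48. The members' median was -0.11 and that over all genes 0.02. The count came to 4 without day 3 replicate 3 (15.4% of all genes lower). It came to 5 without day 3 replicate 1 (15.4%) or day 9 replicate 4 (17.5%).

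Over the whole way from pluripotent cells to day 9, 11 members fell and 0 rose, beside 27.6% of all genes lower and 29.7% higher. RPS26 led, at 68.25 to 96.4 CPM in the 5 wells of day 9 against 329 to 382.5 CPM, a 4.26-fold lower level (log2 -2.09, SE 0.20, adjusted p = 2.49e-11). RPL39L followed at 7.43 to 13.7 CPM against 31.1 to 35.7 CPM, 3.15-fold lower (-1.65, SE 0.22, adjusted p = 6.41e-08). RPSA was at 929 to 1447 CPM against 1975 to 2158 CPM (-0.76, SE 0.21, adjusted p = 0.0018). None of these 3 overlapped between the groups. The other 8 fell by 0.40 to 0.67. The count of falls was 7 without any of pluripotent replicates 1 and 3 and day 9 replicates 3 and 4 (25.2 to 26.7% of all genes). On the TPM of protein-coding genes, where the median of all genes lay 0.13 higher than on the count scale, 8 members were called higher (38.2% of all genes) and 4 lower, and the members' median was 0.08 beside 0.26 over all genes, against -0.20 and 0.13 on the count scale. RPS26 (-1.87) and RPL39L (-1.37) were called lower there too.

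The broadest change came next. Against day 9, the mean of days 14, 20 and 30 was lower for 69 of 80 members and higher for 2, at 18.6% and 20.2% of all genes. The members' median was -0.60, and that of all genes 0.07. Among the largest falls were those of RPS21 (-0.96, SE 0.20, adjusted p = 2.23e-04) and RPS9 (-0.95, SE 0.18, adjusted p = 1.10e-04), both of the 40S subunit. RPS9, a protein near the decoding site, was at 419 to 687 CPM at day 9 and at 155 to 446 CPM later, where 1 later well exceeded the lowest of day 9. RPS21 was at 134 to 239 CPM and then at 46.2 to 158 CPM, where 2 later wells did. RPL3, which lines the site of peptide bond formation, was at 1851 to 2439 CPM at day 9 and at 737 to 1590 CPM in the later wells (-0.90, SE 0.17, adjusted p = 6.13e-05). RPLP0 was at 1965 to 2927 CPM and then at 932 to 2166 CPM (-0.70, SE 0.15, adjusted p = 2.34e-04). By subunit, 41 of 48 tested 60S members fell (median -0.53), and 28 of 32 40S members (median -0.65). The 2 that rose were RPS27L and RPS26, described below. Members that were not called included RPL28, RPLP1, RPS24, RPL3L, RPL26, RPL39L, RPL38 and RPL36A, all below 0.

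RNA integrity, depth and cell mixture differed between these groups too. So did the supplement, insulin-free B27 at day 9 and CTS B-27 at days 14 to 30. Restricted to wells with an integrity number of at least 9, the members' median was -0.59 beside -0.05 over all genes. Day 14 and day 20 then kept only replicate 3 each, so the spread within these groups could not be seen. Without the 3 shallow libraries the comparison called 71 members lower (18.1% of all genes). With the spread of the 4 groups alone the count was 43, at 10.8% of all genes. Among the later wells, those with the 2 lowest member shares, day 30 replicates 3 and 1 (16.9 and 17.0%), had integrity numbers of 10.0 and 9.5, while at day 14 the wells with 7.4 and 8.2 had 17.6 and 17.7% and the well with 9.8 had 21.2%. Day 30 replicate 10, with 7.4, had the highest share of the 3 day 30 wells (22.8%). Endoderm markers were at 927 to 4006 CPM at days 14 and 20 and at 19.1 to 280 CPM at day 30, while the member share was near 18.9% in all 3 groups. By called genes over days 14 to 30, 3 of 5 endoderm markers and 3 of 3 endothelial markers were lower than at day 9, and 3 of 6 cardiomyocyte, 2 of 3 smooth muscle and 1 of 6 fibroblast markers were higher. The part of RNA quality, depth and cell mixture in the fall was not tested. That of the supplement cannot be told apart from that of time in culture.

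At day 90 few members differed from day 9, and the wells were spread widely. Against day 9, 2 members rose and 2 fell (18.7% and 19.7% of all genes), with a median of -0.05 beside -0.02 over all genes. RPS27L rose from 42.4, 45, 40.5, 32.9 and 35.0 CPM to 103, 71.3 and 96.7 CPM, with every day 90 well above every day 9 well (2.31-fold, log2 1.21, SE 0.17, adjusted p = 2.58e-07). RPL10, among the last proteins to join the 60S subunit, was at 927 to 1321 CPM at day 9 and at 1975, 1322 and 1934 CPM at day 90 (0.70, SE 0.22, adjusted p = 0.011). Its lowest day 90 well stood just above the highest day 9 well, and the call was lost without day 90 replicate 2 (0.60, adjusted p = 0.062) or replicate 5 (0.62, adjusted p = 0.057). Among wells with an integrity number of at least 9, where day 90 kept only replicate 4, the RPL10 value was 0.26. RPSA (-0.54, SE 0.21, adjusted p = 0.041) and RPL28 (-0.52, SE 0.21, adjusted p = 0.0425) fell with overlapping wells. No member was called lower without any of day 9 replicates 1 and 2 and day 90 replicates 4 and 5 (15.5 to 19.0% of all genes). Without day 9 replicate 10 the count of falls was 1 (19.6% of all genes), and without day 90 replicate 2 it was 4 (17.4%).

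The day 90 result depended on which wells were kept and on the scale. Replicate 4, with 50740 CPM of cardiomyocyte markers against 15090 and 19640 CPM in replicates 2 and 5, held a member share of 17.5%, against 24.8 and 23.5%. Its fibroblast marker sum was 2432 CPM, against 15280 and 8109 CPM. It was also the only day 90 well with an integrity number of at least 9, and a comparison of wells above that value, in which it stands alone and is assumed to vary like the other groups, called 35 members lower (20.0% of all genes). On limma with protein-coding TPM, where the median of all genes lay at -0.26 and that of the members at -0.25, 29 members were called lower (32.6% of all genes). RPS27L was called higher under both (0.82 and 1.08). The part of cell mixture and RNA quality in these values was not tested. Day 90 and day 9 also differed in supplement, whose part cannot be told apart from that of time in culture.

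**Figure D3:**
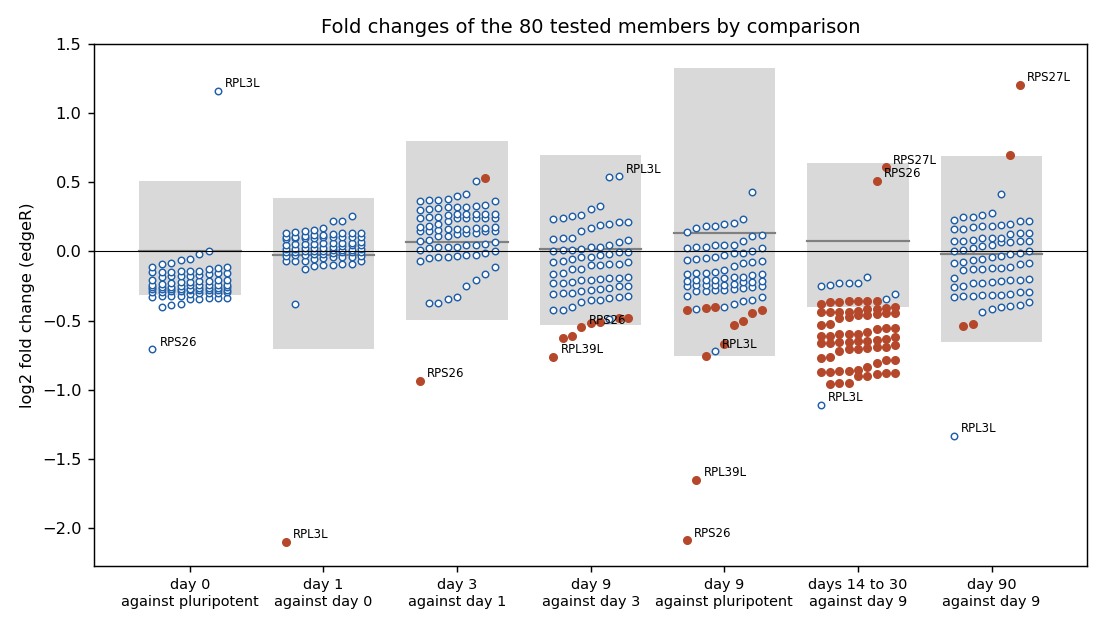
Log2 fold change (y axis) of the 80 tested members in 7 comparisons (x axis); filled red points were called at an adjusted p under 0.05, open blue points were not, and the grey box spans the middle quartiles of all 22955 genes with their median as a line. In days 14 to 30 against day 9, 69 members lie below 0 as filled points, while in the other comparisons at most 11 are filled below 0.

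Few members changed by 2-fold or more. At an adjusted p under 0.05 and a change of at least 2-fold, no member was called at day 0 against pluripotent (2.73% of all genes higher and 0.183% lower), at the step from day 1 to day 3 (11.0% and 6.80%), at the step from day 3 to day 9 (12.3% and 8.88%) or over days 14 to 30 (10.7% and 7.27%). RPL3L alone was called lower at day 1 (3.86% higher and 9.66% lower), and RPS27L alone higher at day 90 (11.9% and 12%). RPS26 and RPL39L were called lower for day 9 against pluripotent (23.1% and 17.1%). In each of the 5 chained comparisons, 77 to 79 of the 80 members had a log2 fold change that stayed within 1 of 0 at 2 SE. For day 9 against pluripotent 75 did, and for days 14 to 30 against day 9 it was 55.

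RPL3L, the muscle paralog, stayed at about 1 CPM or less in every well while RPL3 was abundant. Its gene lies at 1943974 to 1957606 on chromosome 16 (GRCh38, minus strand). The level was 0.377 ± 0.14 CPM in pluripotent wells and highest at day 0 (0.846 ± 0.28), then 0.193 ± 0.049 at day 1 and 0.153 ± 0.037 at day 3 (SD, n = 3 each). The 5-well groups had 0.458 ± 0.17 (day 5), 0.252 ± 0.080 (day 7), 0.224 ± 0.095 (day 9) and 0.142 ± 0.12 (day 11). The later groups of 3 had 0.0663 ± 0.032 (day 14), 0.292 ± 0.35 (day 20), 0.0917 ± 0.13 (day 30) and 0.0784 ± 0.092 (day 90). The 3 wells of day 0 were above those of all other groups apart from day 5 and day 20, and most later wells lay at or below the level of 3 counts. A count of 3, taken as the smallest level that can be told from 0, corresponds to 0.0919 to 0.410 CPM in these libraries. Every well of day 14 had 1 count, and the 3 wells of day 90 had 4, 0 and 1, where RPL3 stood at 1939, 1252 and 1685 CPM. Day 90 against day 9 gave -1.34 (SE 0.83, adjusted p = 0.21). In wells with an integrity number of at least 9 it was called lower (-5.57, adjusted p = 0.043), from a single day 90 well at 0 counts, against which the fitted size has no meaning. Days 14 to 30 against day 9 gave -1.11 (SE 0.60, adjusted p = 0.13), and passed the test without day 20 replicate 2 (-1.53, adjusted p = 0.037) or day 30 replicate 10 (-1.66, adjusted p = 0.032), each a shallow library with 5 and 3 counts. It also passed without the shallowest 3 libraries (-2.17, adjusted p = 0.0054) and in wells with an integrity number of at least 9 (-3.69, adjusted p = 4.94e-04), where the 4 later wells had 0 or 1 count, so that the size of the fitted change is not informative. As a share of RPL3L and RPL3 per length, the highest well had 0.0164% at day 14, 0.012% at day 30 and 0.00436% at day 90, and no well of the series exceeded 0.1315%. The skeletal muscle factors MYOD1, MYF5, MYOG and MYF6 summed to 2.41 CPM or less in every well.

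RPS26 was among the members whose course differed from that of most others. Its gene lies at 56041351 to 56044697 on chromosome 12. From 355 ± 26.7 CPM in pluripotent wells it went to 217 ± 8.1 (day 0), 233 ± 10.7 (day 1) and 122 ± 14.0 (day 3; SD, n = 3 each), and to 80.8 ± 6.39 (day 5), 83.3 ± 8.68 (day 7) and 83.3 ± 12.4 (day 9; SD, n = 5 each). Day 5, its lowest group, was the group where the members' share of messenger RNA was highest. At days 14, 20 and 30, where the others were low, RPS26 stood at 134 ± 26.0, 123 ± 4.48 and 101.5 ± 17.8 CPM (SD, n = 3 each), above day 9 by 0.51 (SE 0.16, adjusted p = 0.0097), with overlapping wells. At day 90 it was 93.3 ± 29.5 CPM (SD, n = 3). Per length it went from 1239 nuclear protein-coding TPM in pluripotent wells to 339 at day 9, while RPL22, on average the lowest of the other core members, stood at 739 and 661. Adding the counts of its named pseudogenes left the fall from pluripotent to day 9 at -2.09.

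RPS27L was lowest at day 5, where the members' share was highest, and its CPM was highest at day 90. It was at 43.8 ± 3.57 CPM in pluripotent wells and later at 27.98 ± 3.62 (day 5), 39.2 ± 5.07 (day 9), 67.0 ± 2.56 (day 30) and 90.4 ± 16.9 (day 90; SD, n = 3, with n = 5 at days 5 and 9). Its rise over day 9 was 0.61 (SE 0.13, adjusted p = 4.53e-04) for days 14 to 30, with overlapping wells. As a share of RPS27L and RPS27 per length it held 1.69 ± 0.064% in pluripotent wells, 0.902 ± 0.072% (day 5), 1.66 ± 0.27% (day 9), 4.26 ± 1.29% (day 20), 4.41 ± 1.29% (day 30) and 3.76 ± 0.016% (day 90). RPS27 itself was between 506 and 730 CPM at day 9 and at 802, 515 and 779 CPM at day 90 (0.10, SE 0.19, adjusted p = 0.73). The RPS27L locus overlaps LACTB, so that reads of that gene could enter its count if they were not told apart.

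RPL39L fell over the way from pluripotent cells to day 9. Group means were 33.3 ± 2.30, 30.2 ± 0.20, 23.2 ± 1.41 and 17.9 ± 1.41 CPM in pluripotent, day 0, day 1 and day 3 wells (SD, n = 3 each), and 14.4 ± 1.48, 14.1 ± 5.26 and 10.6 ± 2.32 CPM at days 5, 7 and 9 (SD, n = 5 each). No step between the first 4 groups passed the test alone, although their wells did not overlap. The lowest level was 7.32 ± 1.99 CPM at day 14, and day 90 was at 11.99 ± 2.12 CPM (SD, n = 3 each). RPL39, a small protein of the exit tunnel, was at 425 to 440 CPM in pluripotent wells and at 439 to 691 CPM at day 9 (0.43, SE 0.25, adjusted p = 0.14). The share of RPL39L per length was 2.87 ± 0.20% before differentiation and 0.713 ± 0.13% at day 9.

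**Figure D4:**
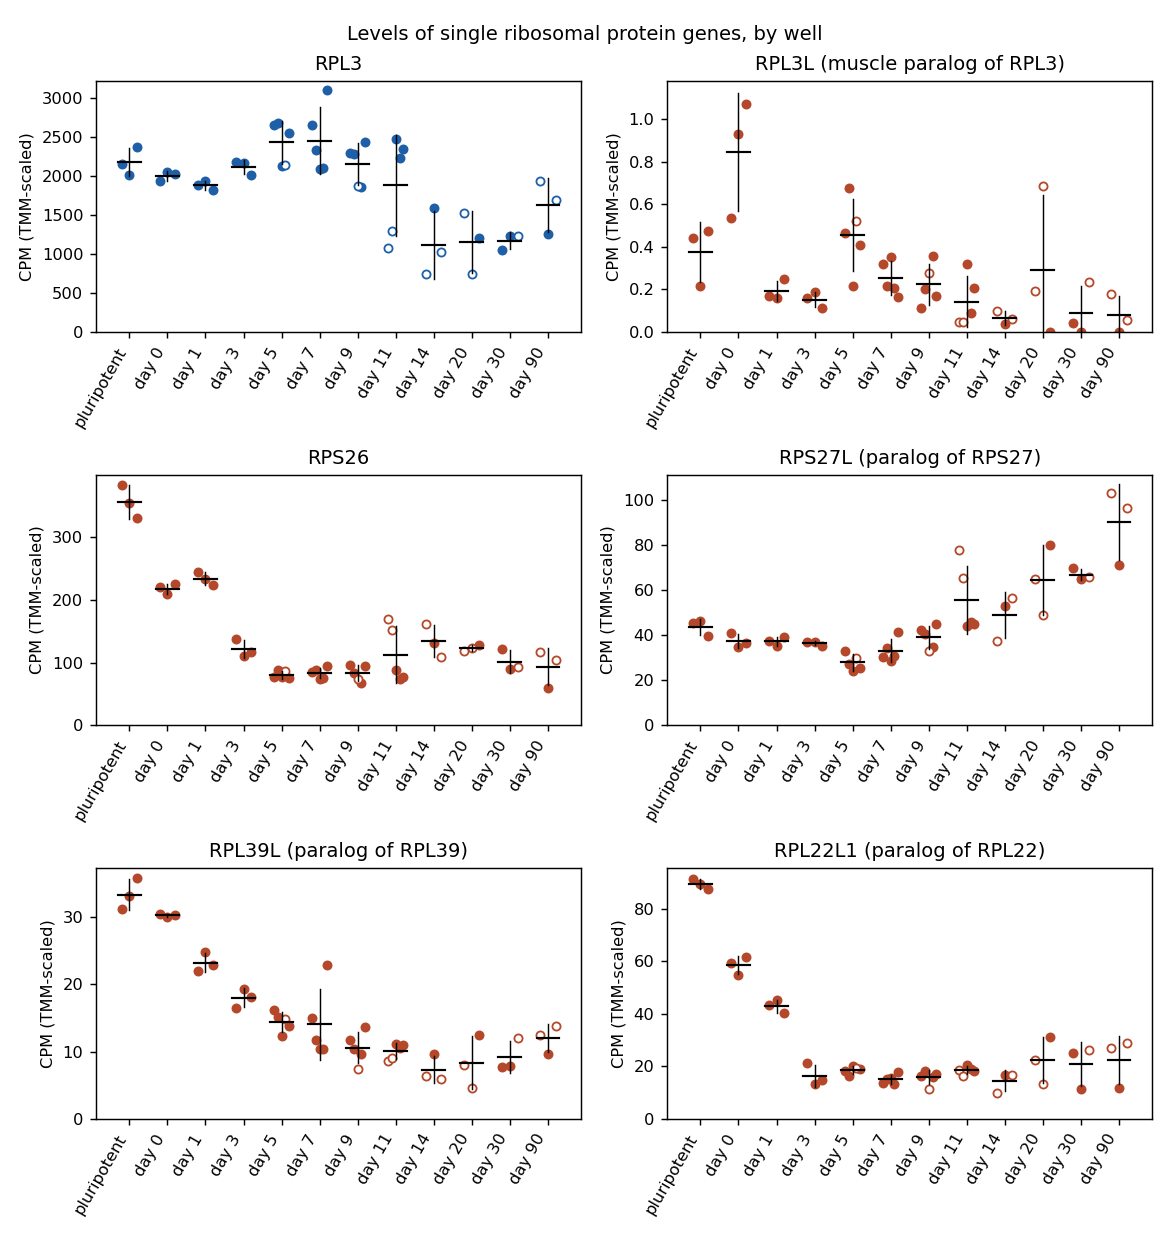
Level in TMM-scaled CPM (y axis, starting at 0) of RPL3, RPL3L, RPS26, RPS27L, RPL39L and RPL22L1 in each well, by group (x axis), with the group mean as a horizontal line and 1 SD as a vertical line cut at 0; open points are wells with an RNA integrity number below 9. RPL3L stays near 1 CPM or below throughout, RPS26, RPL39L and RPL22L1 are highest in pluripotent wells, and RPS27L is highest at day 90.

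Paralogs whose symbols fall outside the rule are given beside their partners. RPL22L1, the paralog of RPL22, was at 91.4, 89.3 and 87.4 CPM in pluripotent wells, then 58.5 ± 3.50 (day 0), 42.9 ± 2.44 (day 1) and 16.4 ± 4.17 CPM (day 3; SD, n = 3 each). It fell by 1.39 from day 1 to day 3 (SE 0.27, adjusted p = 9.91e-05) and was 5.64-fold lower at day 9 than in pluripotent cells (-2.50, SE 0.23, adjusted p = 1.42e-11). Its share of RPL22L1 and RPL22 per length went from 33.6 ± 1.76% to 7.10 ± 1.75% at day 3 and 16.1 ± 3.85% at day 90 (SD, n = 3 each). RPL22 was at 371 to 454 CPM in pluripotent wells and 488 to 520.5 CPM at day 3. RPL36AL fell by 0.99 (SE 0.16, adjusted p = 1.57e-06) and RPL26L1 by 0.78 (SE 0.15, adjusted p = 5.00e-05) between pluripotent cells and day 9, while RPL36A (-0.09, adjusted p = 0.71) and RPL26 (-0.22, adjusted p = 0.25) were not called. RPL7L1, which shares a name with RPL7 but works in ribosome assembly, fell by 0.56 at day 0 (SE 0.16, adjusted p = 0.032), rose by 0.62 at day 1 (SE 0.16, adjusted p = 0.0043) and fell by 0.45 at day 3 (SE 0.16, adjusted p = 0.032). Its day 0 call was lost when any of the 6 wells was left out, and its day 3 call was lost without any 1 of 5 wells (all but day 1 replicate 2). With limma on protein-coding TPM its day 0 value was -0.13 (adjusted p = 0.62). RPL7 had -0.28, 0.05 and 0.16 in the same steps, none of them called.

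Other genes that serve the ribosome are given for comparison, and differences between lists were not tested. The list of 20 ribosome assembly factors had 15 higher and 0 lower at day 1 against day 0 (median 0.84), where 9.78% and 12.3% of all genes were called. It had 0 higher and 18 lower at day 3 against day 1 (median -1.10), where 15.7% and 12.9% were. The members had medians of 0.02 and 0.16 in the same steps. BOP1, a factor of 60S assembly, rose by 0.97 (SE 0.25, adjusted p = 0.0043) and then fell by 1.85 (SE 0.26, adjusted p = 5.78e-07), and NCL, or nucleolin, rose by 0.51 (adjusted p = 0.045) and fell by 0.65 (adjusted p = 0.0071). By day 9 all 20 were lower than in pluripotent cells (median -1.49), beside 27.6% of all genes. Of 11 genes of RNA polymerase I and its control, 7 were higher at day 1 (median 0.73) and 5 lower at day 3, beside the same shares of all genes, and POLR1B had 1.17 (SE 0.24, adjusted p = 3.745e-04) and -1.68 (SE 0.24, adjusted p = 1.07e-06). Both steps share the day 1 wells.

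At days 14 to 30, 9 of the 20 assembly factors were higher and 3 lower than at day 9 (median 0.12), beside 20.2% of all genes higher and 18.6% lower. The list of 17 other mRNAs with a terminal pyrimidine tract or a ribosome-linked product had 13 lower and 0 higher there (median -0.50). EEF1A1, the elongation factor that brings aminoacyl-tRNA, fell by 0.70 (SE 0.16, adjusted p = 6.59e-04), and EEF2, the translocation factor, fell by 0.61 (SE 0.16, adjusted p = 0.0030). EEF1A2, the muscle and neuron form of EEF1A1, rose by 3.39 from day 3 to day 9 (SE 0.45, adjusted p = 1.73e-07) and by 1.53 from day 9 to day 90 (SE 0.37, adjusted p = 0.0011), which RPL3L did not. The 78 mitochondrial ribosomal protein genes had 66 lower and 1 higher at day 9 than in pluripotent cells (median -0.81), where 11 of 80 cytoplasmic ones fell and 27.6% of all genes were lower and 29.7% higher. They had 31 higher and 4 lower at day 90 than at day 9 (median 0.26), beside 18.7% and 19.7% of all genes, and 11 higher and 10 lower for days 14 to 30 (median 0.08).

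Wells of the same group differed in the whole family at once. The median log2 deviation of 78 members from their group mean ran from -0.39 to 0.42 over the 44 wells, and in 32 wells it had the sign of the deviation of 744 other protein-coding genes with transcripts under 700 bases, which ran from -0.24 to 0.21. At day 11 the groups split without this. Replicates 1 and 2 had member deviations of -0.39 and -0.29 and the other 3 wells 0.16 to 0.31, while the other short mRNAs stayed between -0.01 and 0.02 in all 5. Replicates 1 and 2 had 4502 and 8592 CPM of endoderm markers and 7176 and 4661 CPM of cardiomyocyte markers, with integrity numbers of 8.6 and 8.0. The other 3 wells had 154 to 167 CPM, 17460 to 18920 CPM and 9.2 to 9.5. RPL3 followed, at 1073 and 1288 CPM against 2223 to 2470 CPM, and RPS26 went the other way, at 170 and 152 CPM against 74.0 to 87.6 CPM. At day 9, by contrast, replicate 2 had 6105 CPM of endoderm markers and a member share of 27.4%, near the highest of its group. The part of cell mixture and RNA quality in these wells was not tested.

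**Figure D5:**
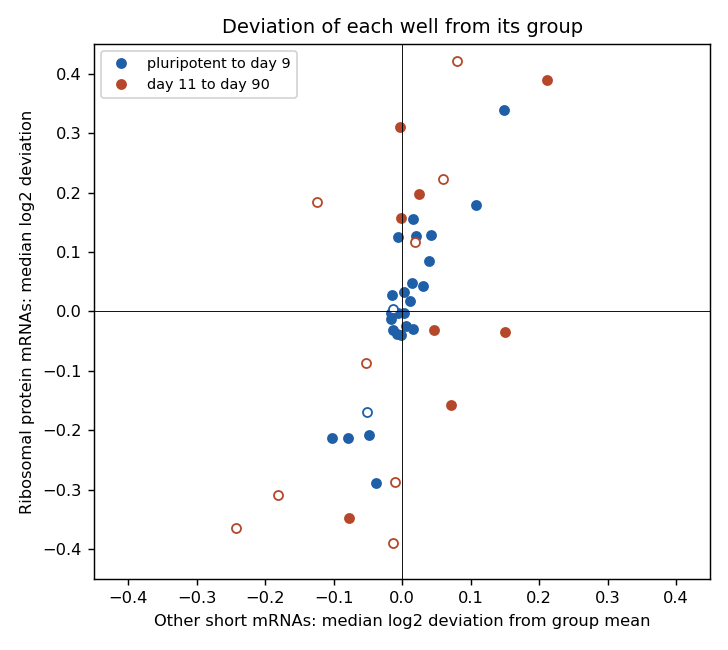
Median log2 deviation from the group mean of 78 ribosomal protein mRNAs (y axis) against that of 744 other short mRNAs (x axis), 1 point per well, with blue for pluripotent to day 9, red for day 11 to day 90 and open points for an RNA integrity number below 9. The 2 open red points near 0 on the x axis at -0.39 and -0.29 are day 11 replicates 1 and 2.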

How the data were processed

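The authors deposited expected counts per gene and TPM, made with cutadapt, STAR 2.5.2b and RSEM 1.2.31 on hg38, per the submitters' processing notes, from stranded total-RNA libraries read as 150 bp pairs; the annotation release is not given in the sources used here. A deposited table gives each library's RNA integrity score and lane. The members and lists were chosen with earlier results of these data known.

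Expected counts were rounded, filtered with filterByExpr (22955 genes left) and scaled by TMM. edgeR 4.0.16 (R 4.3.3) fitted 1 mean per group over 44 libraries. Named were, per comparison, the 3 called members with the largest rise and fall at 10 CPM or more, RPLP0 and the paralog pairs; other names were chosen after their values were seen. Some results are not reported here. Alternatives used DESeq2 1.42.0 and limma 3.58.1 on log2(TPM + 1) and log2(TPM + 0.1), each with TPM rescaled over protein-coding genes. In this limma scale the mitochondrially encoded protein-coding genes were included. Levels are TMM-scaled CPM or, between genes, TPM rescaled to 1e+06 over nuclear protein-coding genes. The rescaling was made because nuclear protein-coding genes hold only 14.9 to 41.6% of the TPM. Counts carry no molecular identifiers, so floors of 3 counts cover counting error only. No 2 libraries of the same group were copies (64 pairs), and libraries of different groups were not compared in this way. Steps were tested on simulated data.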

Additional observations from a re-analysis of the deposited data

Results flagged for a closer look

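Of 72 sets of 5 wells tested for a single distant value (the member share and 17 single genes at days 5, 7, 9 and 11), 2 had one, where chance alone gives about 1 in 20. RPL12 at day 5 was at 864 CPM in replicate 3 and at 1002 to 1043 CPM in the other 4 wells, a gap of 0.771 of the group's range. RPL10 at day 7 was at 1442 CPM in replicate 10 and at 1016 to 1138 CPM in the others, a gap of 0.714 of the range. In these wells the 78 members together deviated from their group by -0.21 and 0.34 on the log2 scale.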

How the results depend on the processing

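None of the 47 single-gene results changed sign under up to 12 other settings or when wells were left out one at a time; limma gave no value for RPL3L. The members' median did change sign for day 9 against pluripotent, from -0.20 to 0.08 with limma, and for day 90 against day 9, from -0.05 to at most 0.10, in 5 alternatives. Of 944 single-gene values 822 kept their side of the threshold, 116 lost the call and 6 gained it. The broad fall at days 14 to 30 gave 60 to 74 members lower in 11 settings, beside 8.48 to 19.15% of all genes. It gave 43 when the spread came from the groups compared alone (10.8%). With that estimate, day 0 against pluripotent gave 55 lower and 1 higher (24.7% and 24.6% of all genes). Day 1 against day 0 gave 2 lower and 11 higher (29.4% and 29.5%). Day 3 against day 1 gave 5 lower and 40 higher (29.9% and 30.2%). Day 9 gave 1 higher against day 3 (27.1%) and 1 higher against pluripotent (37.8%), and day 90 gave 0 lower against day 9 (21.0%). The cause of these shifts was not tested.

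With limma on log2(TPM + 1) and log2(TPM + 0.1), day 1 gave 0 lower (12.5 and 12.8% of all genes). Day 3 against day 1 gave 3 higher in both (14.25 and 15.4%). Day 9 against day 3 gave 1 higher in both (23.1 and 23.5%). Day 9 against pluripotent gave 8 higher (38.2 and 38.9%) and 4 lower (22.7 and 22.25%) in both. Day 90 against day 9 gave 29 and 27 lower (32.6 and 33.3%). Without a filter on low counts there were 0 lower at day 1 (5.04% of all genes) and 0 higher at day 3 (6.325%). There were 4 lower at day 9 against day 3 (7.44%) and 6 lower against pluripotent (12.9%). Day 90 had 0 lower (8.41%). DESeq2 gave 1 lower at day 0 (4.35%), 1 higher at day 9 against day 3 (20.0%) and 1 lower at day 90 (18.7%). RLE scaling gave 0 lower at day 90 (17.8%), and TMM without the members and mitochondrial genes gave 1 (19.8%).

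Wells with an integrity number of at least 9, an alternative chosen after seeing the data, gave 4 lower at day 0, 7 higher at day 3, 8 higher at day 9 against day 3, 4 higher at day 9 against pluripotent, and 35 lower and 1 higher at day 90. Beside these counts, 9.51% of all genes were lower at day 0 and 21.9% were higher at day 3. At day 9, 24.7% of all genes were higher against day 3 and 34.5% against pluripotent. The day 90 counts rest on replicate 4 alone. Leaving out the shallowest 3 libraries, also chosen after seeing the data, gave 1 lower at day 0 (4.3%). It gave 3 higher at day 3 (17.4%), 1 higher at day 9 against day 3 (19.2%) and 1 higher against pluripotent (31.2%).

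Replicate numbers did not pair the wells, since correlations of same-numbered wells ran from -0.25 to 0.23. A replicate block gave 1 lower at day 0 (3.24% of all genes) and 0 lower at day 1 (13.35%). It gave 18 lower at day 9 against pluripotent (27.7%) and 1 lower at day 90 (20.4%).

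Leaving out each well in turn, the counts ranged from 0 to 1 lower at day 1, 0 to 1 higher and 1 lower at day 3, 4 to 10 lower at day 9 against day 3 and 7 to 14 lower against pluripotent. Day 90 had 0 to 4 lower (15.5 to 19.6% of all genes) and 1 to 3 higher (16.3 to 18.4%). Days 14 to 30 had 60 to 75 lower (16.2 to 20.8%) and 2 higher (16.2 to 22.3%). The other counts were 0 throughout. RPL3L and RPL10L were at or near 0 counts in many wells, so that changes in them were hardly detectable at this depth.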
